A study of Mus musculus with 6 samples.

Results

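The genes described are 10 members of the ephrin-A and EphA family, 5 ligands (Efna1, Efna2, Efna3, Efna4 and Efna5) and 5 receptors (Epha2, Epha3, Epha4, Epha5 and Epha7). Members were taken as genes with a probe set annotated to that gene symbol alone, and they hold 27 of the 45037 probe sets tested and are 10 of the 18193 genes measured. For each gene the probe set of highest mean log2 signal over the arrays was taken as the main probe set, and the other probe sets served as a check.

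Ephrin-A ligands are tethered to the cell surface by a lipid anchor, and EphA receptors are tyrosine kinases on the membrane of a neighbouring cell. Contact between these cells sends a signal into both of them, which as a rule makes a growing axon or a migrating cell turn away or adhere less. The family is known for sorting axons into maps in the developing brain, for EphA4 on axons and on astrocytes of injured nervous tissue, and for ligands and receptors on marrow stroma, bone and vessels.

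RNA of 2 groups of mouse cells grown in culture was hybridized to 3 arrays per group. Naïve Large T BMSC are adherent marrow stromal cells from the Immortomouse, a CBA/ca × C57Bl/10 hybrid in which the promoter of the histocompatibility gene H-2Kb drives a temperature-sensitive SV40 large T antigen (tsA58), so that the cells divide at 33°C. iLarge T BMSC are such cells that were injected into a vein 24 h after occlusion of the middle cerebral artery for 60 min in male C57BL/6 mice aged 6 to 8 weeks, were released from the infarcted hemisphere 14 days later and were cultured at 33°C. Both groups carry the large T antigen and were passaged 3 times. Each array holds RNA pooled from 3 hemispheres or from 3 sets of naïve cells, and p-values measure the spread between these pools. The recovered cells are those that grew out at 33°C. The 6 arrays include neither naïve cells put through a second outgrowth nor cells recovered from an uninjured brain, so the injury, the stay in the brain and the second outgrowth cannot be told apart.

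Arrays are named by the submitters' numbers, odd (1, 3 and 5) in the naïve group and even (2, 4 and 6) in the iLarge T group. The values are MAS5 signals, a brightness per probe set on a linear scale, and a signal under the 40th percentile of its array (183 to 299.6) was taken as near background. Naïve replicate 1 stood apart from the other naïve arrays, with correlations of log2 signals over probe sets of 0.829 and 0.831 against 0.892 between naïve replicates 3 and 5. Among transcripts added as hybridization controls, BioC was dim on replicates 3 and 4 (1620.4 and 2050.3, against 8767 to 11079 on the others) and CreX was bright on replicates 1 and 2 (146726 and 157058, against 76780 to 105055). Neither transcript alone parts all of the pairs 1 and 2, 3 and 4, and 5 and 6, BioB does not part the last 2 pairs, and the labels give no batch. Differences within these pairs, read from the data, are given beside the pooled ones. All 10 stromal markers measured lay at or above the 40th percentile on the 6 arrays (Pdgfrb and Cd44 were called higher, Vcam1 lower). Of 8 endothelial markers Cdh5 and Emcn were called higher, with every iLarge T array above every naïve array (Cdh5 2210.6, 2787 and 23797, against at most 209.9 on naïve arrays), and Tek was called lower. Of 8 macrophage markers Csf1r was called higher (1 of its 3 probe sets), and of 7 astrocyte markers S100b was (1 of its 2). The astrocyte marker Gja1 was not called at its main probe set, but 2 of its 6 probe sets were called lower. Over all genes 3.54% were called higher and 3.26% lower. Summed signals of the endothelial and the macrophage list were highest on iLarge T replicate 6 (52132 and 50745). On iLarge T replicates 2 and 4 the endothelial sums were 6868 and 7808, against 6709, 9283 and 9931 on the naïve arrays. The macrophage sums there were 5855 and 4667, against 2616, 10926 and 9481 on the naïve arrays. These are bulk cultures, in which fewer cells of a type and less RNA per cell cannot be told apart.

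Of the 10 members Efna1 fell in iLarge T BMSC, and no receptor passed the test, although 4 of the 5 receptors had a positive fold change and Epha2 a negative one. Calls were made with limma, which fits each probe set by a linear model and borrows strength across them to estimate the spread, and needed both an adjusted p under 0.05 and 2-fold. By main probe set 1 member was called lower, Efna1, where 3.26% of all genes were (6.80% in either direction), and 0 members were called higher, where 3.54% of all genes were. At an unadjusted p under 0.05, limma gave 3 members with a negative and 2 with a positive fold change, where 22.0% of all genes passed, and the methods' t-test, run on log2 or on linear signals and adjusted by Benjamini-Hochberg, called 0 members in either direction at 2-fold. In 7 of the 10 members (3 with iLarge T below, 4 above) the ranges of the groups were apart, against 27.6% of all genes (13.1% below, 14.5% above). The median log2 fold change was 0.05 over the ligands and 2.06 over the receptors, against 0.06 over all genes. The receptor median is the value of Epha3, which was near background on 2 of the 3 naïve arrays and was not called. With signals raised to the 40th percentile the log2 fold change of Epha3 was 0.82. The median spread within groups was 0.90 on the log2 scale for the members and 0.68 for all genes.

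**Figure D1:**
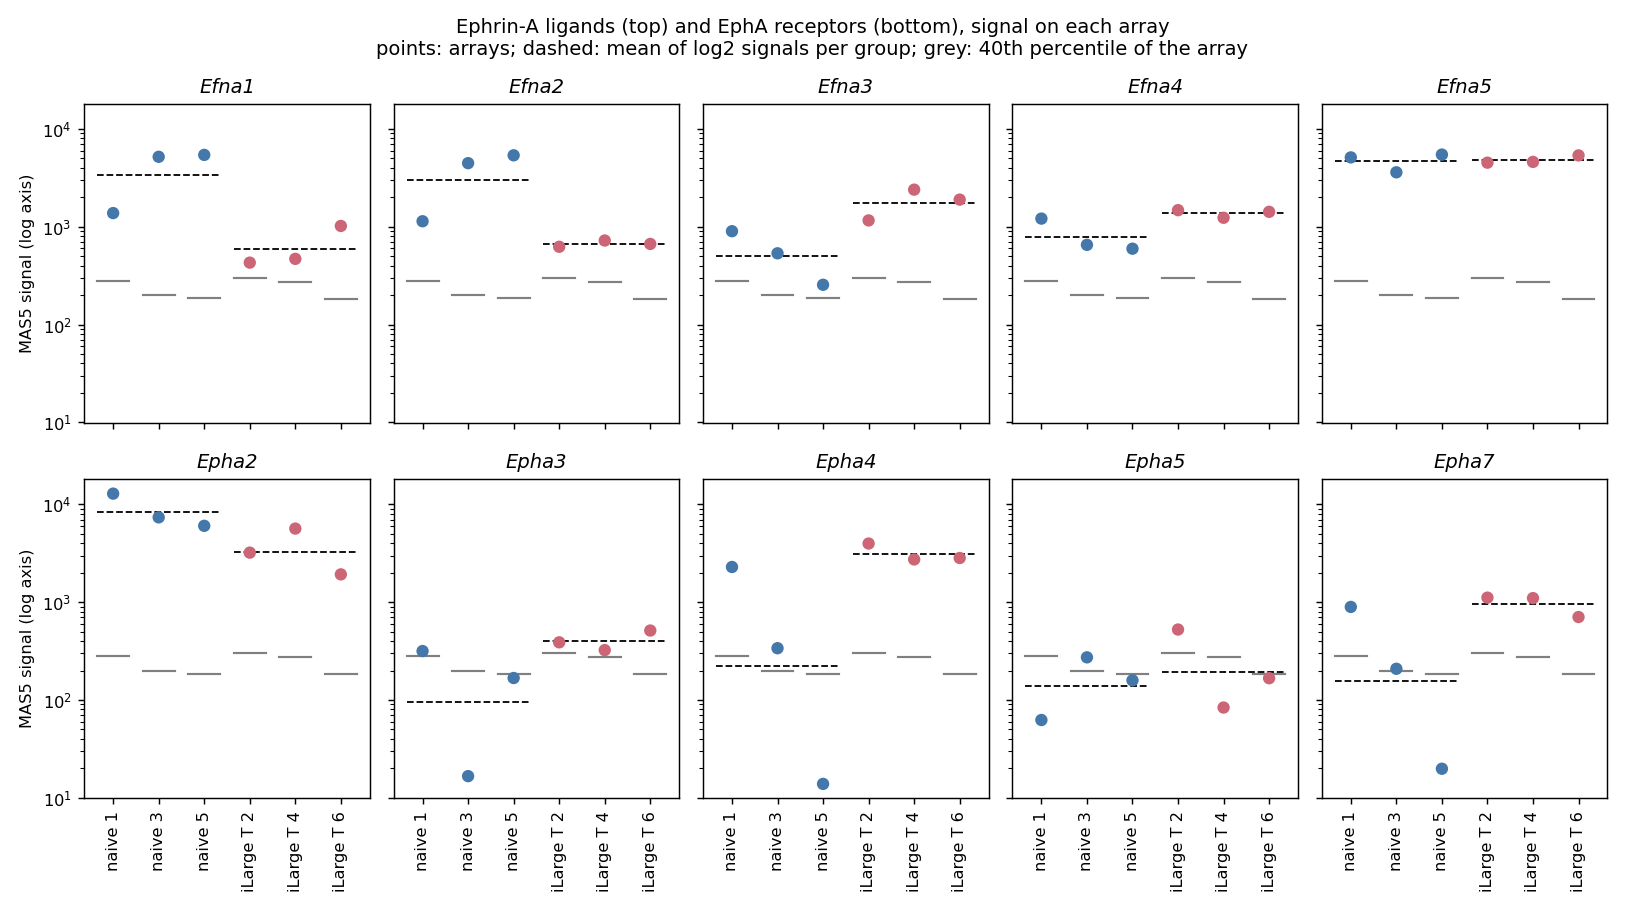
MAS5 signal of the main probe set of each ligand (top row) and receptor (bottom row) on the 3 naïve (blue) and 3 iLarge T (red) arrays, on a log axis, with the mean of log2 signals per group (dashed) and the 40th percentile of each array (grey). Efna1, Efna2 and Epha2 were lower on every iLarge T array than on every naïve array, and Epha4 and Epha7 were bright on naïve replicate 1 but not on naïve replicates 3 and 5.

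Efna1 encodes ephrin-A1, a ligand of EphA2 that endothelial and other cells make in response to inflammatory cytokines. Naïve replicates 1, 3 and 5 had signals of 1378, 5185 and 5423, and iLarge T replicates 2, 4 and 6 had 429.6, 469 and 1019. Every iLarge T array lay below every naïve array, with naïve replicate 1 the lowest of its group and iLarge T replicate 6 the highest. From a mean signal of 3996 ± 2270 (SD, n = 3) in naïve BMSC to one of 639 ± 329 (SD, n = 3) after recovery, Efna1 had a log2 fold change of -2.52 with a standard error of 0.58 and an adjusted p of 0.0389 from limma. Within the pairs of arrays the log2 differences were -1.68, -3.47 and -2.41.

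The other probe set of Efna1 was also called lower. It had signals of 1308, 5572 and 3886 on the naïve and 31.8, 253 and 467 on the iLarge T arrays, and a log2 fold change of -4.29 with a standard error of 0.95 (limma, adjusted p = 0.0327), where 2.27% of all probe sets were called lower. On iLarge T replicates 2 and 4 this probe set was near background, and its call was lost without either of these (0.0518 and 0.0798) and without naïve replicate 3 (0.153) or 5 (0.119). At the main probe set the call was made without naïve replicate 1 (adjusted p = 0.00143) and lost on leaving out naïve replicate 3 (0.177), naïve replicate 5 (0.160) or, of the iLarge T arrays, replicate 2 (0.135), 4 (0.147) or 6 (0.0561). The macrophage marker Cd68 was also lowest of the naïve arrays on replicate 1 (544, 9873 and 8396) and was highest of the iLarge T arrays on replicate 6 (16962). Itgam and Tyrobp of the same list were lowest on naïve replicate 1 as well, but were near background on all naïve arrays. Csf1r, Adgre1, Ptprc and Cx3cr1 were highest of the naïve arrays on replicate 1. All measured markers of the list but Cx3cr1 were highest of the iLarge T arrays on replicate 6. The part of these markers in the signals of Efna1 was not tested.

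Efna2 encodes ephrin-A2, a repellent of retinal axons that also acts between bone-forming and bone-resorbing cells. Its main probe set had signals of 1138, 4465 and 5371 on the naïve arrays and of 624, 723 and 667 on the iLarge T arrays. The groups did not overlap, and as for Efna1 the lowest naïve signal was that of replicate 1. Efna2 was not called at this probe set, with a log2 fold change of -2.17 and a 95% interval of -3.41 to -0.92 (standard error 0.56, adjusted p = 0.0582). A call was reached on leaving out naïve replicate 1 (log2 fold change -2.87, adjusted p = 0.000532) and with the hybridization pairs as a block (adjusted p = 0.0274). Both settings also called more of all genes than the main fit, which called 644 higher and 593 lower. The counts were 1298 and 1214 without naïve replicate 1, and 910 and 885 with the block. The other probe set was called lower, with signals of 390.1, 947 and 1085 in naïve BMSC and of 89.7, 40.7 and 26.4 in iLarge T BMSC, all 3 of the latter near background, so it was at least 2.99-fold lower (adjusted p = 0.0327). This call was kept without naïve replicate 1 (0.0199) and iLarge T replicate 2 (0.0457), and lost on leaving out naïve replicate 3 (0.177), naïve replicate 5 (0.181), iLarge T replicate 4 (0.0905) or iLarge T replicate 6 (0.0828).

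Efna3 encodes ephrin-A3, known as an astrocyte ligand of EphA4 on the spines of hippocampal neurons. Its main probe set had signals of 899.8, 535 and 255 on the naïve and of 1160.2, 2393 and 1893 on the iLarge T arrays. Every iLarge T array lay above every naïve array, but iLarge T replicate 2 and naïve replicate 1 were close, with log2 differences within the pairs of 0.37, 2.16 and 2.89. Efna3 was not called at this probe set (log2 fold change 1.81, standard error 0.54, 95% interval 0.59 to 3.02, adjusted p = 0.102), but was called without naïve replicate 1 (2.23, adjusted p = 0.0183). The other probe set was called higher, where 2.47% of all probe sets were. Its signals were 202, 94.1 and 166 on the naïve arrays, all near background, and 1130.3, 1175 and 726 on the iLarge T arrays, at least 4.52-fold higher (adjusted p = 0.0354). That call was kept without naïve replicate 1 (adjusted p = 0.0136) and lost without each of the other arrays (0.0870 to 0.164).

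Efna4 encodes ephrin-A4, which binds several EphA receptors and occurs on lymphocytes and at the sutures of the skull. Its only probe set had signals of 1211, 653 and 596 on the naïve and 1476, 1235 and 1420.4 on the iLarge T arrays. The groups did not overlap, though naïve replicate 1 came close to iLarge T replicate 4. Efna4 was not called (log2 fold change 0.82, standard error 0.42, 95% interval -0.12 to 1.76, adjusted p = 0.359).

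Efna5 encodes ephrin-A5, a repellent of retinal and cortical axons that also binds EphB2. At its main probe set the signals were 5113, 3600.2 and 5464 on the naïve and 4518, 4600.2 and 5358 on the iLarge T arrays. The groups overlapped, with means of 4726 ± 991 (SD, n = 3) before and 4825 ± 463 (SD, n = 3) after recovery. At this probe set the log2 fold change of Efna5 was 0.05 with a standard error of 0.27 (adjusted p = 0.958). Its 95% interval of -0.56 to 0.65 leaves out a 2-fold change in either direction. The dimmer probe set of Efna5 had signals of 181, 366 and 166 in naïve and 377, 548 and 479 in iLarge T BMSC, which did not overlap (log2 fold change 1.06, adjusted p = 0.477). Naïve replicates 1 and 5 were near background there, and the 95% interval of -0.43 to 2.54 does not leave out a 2-fold rise.

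Efna1, Efna3 and Efna4 are next to each other on mouse chromosome 3, in this order between Slc50a1 and Adam15 in the RefSeq annotation of GRCm38.p6. Of these neighbours Efna1 fell, and the main probe sets of Efna3 and Efna4 had positive fold changes that were not called. The 250 bases before the RefSeq starts of Efna1 and Efna3 are shown because these neighbours differ in direction, and those of Epha4 and Epha7 because naïve replicate 1 was the brightest naïve array for both. That trait is not particular to them, as it held for 6 of the 10 members and for 43.6% of all genes. Each sequence is written 5′ to 3′ on the strand of its gene. Capitals mark the GC box, GGGCGG or its reverse complement CCGCCC, a site that Sp1 and related factors can bind.

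Efna1 upstream start, chr3:89280952-89281201, - strand: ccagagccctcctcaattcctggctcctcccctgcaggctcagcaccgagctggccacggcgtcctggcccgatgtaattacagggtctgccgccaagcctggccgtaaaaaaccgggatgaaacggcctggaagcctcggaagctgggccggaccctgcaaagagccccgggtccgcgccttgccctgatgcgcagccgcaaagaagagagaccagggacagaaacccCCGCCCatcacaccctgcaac
Efna1 downstream start, chr3:89279646-89279895, - strand: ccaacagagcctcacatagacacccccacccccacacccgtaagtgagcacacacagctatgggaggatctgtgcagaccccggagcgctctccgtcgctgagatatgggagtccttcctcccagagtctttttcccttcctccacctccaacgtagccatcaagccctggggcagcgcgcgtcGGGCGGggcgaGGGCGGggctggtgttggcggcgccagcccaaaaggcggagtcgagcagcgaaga
Efna3 upstream start, chr3:89322940-89323189, - strand: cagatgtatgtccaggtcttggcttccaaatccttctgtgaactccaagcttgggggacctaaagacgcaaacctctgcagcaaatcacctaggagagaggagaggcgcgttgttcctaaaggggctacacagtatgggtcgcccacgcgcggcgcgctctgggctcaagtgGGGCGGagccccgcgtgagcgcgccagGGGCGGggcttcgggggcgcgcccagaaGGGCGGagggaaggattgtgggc
Efna3 downstream start, chr3:89321769-89322018, - strand: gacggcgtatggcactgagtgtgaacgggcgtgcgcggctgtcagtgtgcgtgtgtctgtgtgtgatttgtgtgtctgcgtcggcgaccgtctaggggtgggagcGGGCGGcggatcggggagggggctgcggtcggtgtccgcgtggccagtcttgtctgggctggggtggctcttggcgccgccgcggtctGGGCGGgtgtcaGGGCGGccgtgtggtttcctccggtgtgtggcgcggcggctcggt
Epha4, chr1:77515089-77515338, - strand: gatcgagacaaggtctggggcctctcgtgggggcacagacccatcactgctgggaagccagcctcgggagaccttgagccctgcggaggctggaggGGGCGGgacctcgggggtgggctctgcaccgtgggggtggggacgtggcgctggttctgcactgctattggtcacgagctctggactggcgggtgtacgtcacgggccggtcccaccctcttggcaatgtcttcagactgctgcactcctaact
Epha7 upstream start, chr4:28812881-28813130, + strand: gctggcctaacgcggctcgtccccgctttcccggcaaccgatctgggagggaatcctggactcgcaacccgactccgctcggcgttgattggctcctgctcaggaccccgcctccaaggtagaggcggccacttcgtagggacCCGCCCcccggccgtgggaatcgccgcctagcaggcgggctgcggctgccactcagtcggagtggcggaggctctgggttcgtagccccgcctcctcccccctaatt

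The RefSeq table held 13 such windows for the 10 members. A GC box was found on either strand in 11 of them, in 8 of the 10 genes, against 32.7% of all 32851 windows of the same length, and 0 held a TATA box (TATAAA, either strand), against 12.4%. All 13 had more CpG dinucleotides than the median window, which had 6. The windows of Epha7 overlap over most of their length and hold the same GC box, so they are not separate, and only the upstream one is shown. All windows of Efna1 and of Efna3 hold the box. The match is a description of the sequence and no measure of binding.

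Epha2 encodes a receptor for ephrin-A1 that is common on epithelial, endothelial and tumour cells. It was the only receptor at or above the 40th percentile on all 6 arrays. Its signals were 12874, 7365 and 6035 on the naïve and 3209, 5655 and 1924 on the iLarge T arrays, which did not overlap. Mean signals were 8758 ± 3626 (SD, n = 3) before and 3596 ± 1895 (SD, n = 3) after recovery, and Epha2 was not called (log2 fold change -1.34, standard error 0.43, 95% interval -2.29 to -0.40, adjusted p = 0.119). Within the pairs the differences were -2.0, -0.38 and -1.65, and with the pairs as a block Epha2 was called lower (adjusted p = 0.0426). Unlike Efna1 and Efna2, its brightest naïve array was replicate 1.

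Epha4 encodes the most promiscuous receptor of the family, which binds ephrins of class A and class B and guides corticospinal and motor axons. Naïve replicates 1, 3 and 5 had signals of 2290.5, 338 and 13.9 at its main probe set, against 3976, 2735 and 2829 for iLarge T replicates 2, 4 and 6. The iLarge T arrays were alike and all above the naïve arrays, while the naïve arrays ran from near background to a signal close to that of iLarge T BMSC. With all 6 arrays Epha4 was not called (log2 fold change 3.83, standard error 1.43, 95% interval 0.62 to 7.03, adjusted p = 0.191). Within the pairs the log2 differences were 0.80, 3.01 and 7.67. Leaving out naïve replicate 1, Epha4 was called with a log2 fold change of 5.51 (adjusted p = 0.00898), and leaving out naïve replicate 5 the value was 1.83 (adjusted p = 0.275).

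Other probe sets of Epha4 showed the same naïve array apart. The second had signals of 1258, 8.37 and 46.6 on the naïve and 4079, 3876 and 3718 on the iLarge T arrays, and missed the threshold (log2 fold change 5.62, standard error 1.44, limma adjusted p = 0.0573). The third had 1779, 18.8 and 14 against 3039, 1413 and 935, where naïve replicate 1 exceeded iLarge T replicates 4 and 6. The fourth had 978, 12.1 and 146 against 1714, 655 and 681, in which naïve replicate 1 again lay among the iLarge T arrays. The fifth was near background on all 6 arrays. Leaving out naïve replicate 1, the adjusted p of these probe sets was 0.000276, 0.00104, 0.0299 and 0.802 in this order.

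Epha7 encodes a receptor of the developing cortex that also occurs in forms without the kinase. Its main probe set had signals of 894, 209 and 19.8 on the naïve and 1113, 1100.5 and 705 on the iLarge T arrays. Naïve replicate 1 lay within the range of the iLarge T arrays, as it did for Epha4 at some probe sets, and naïve replicate 5 was near background. Epha7 was not called with all 6 arrays (log2 fold change 2.62, standard error 1.18, 95% interval -0.01 to 5.25, adjusted p = 0.287). The value was 3.89 without naïve replicate 1 (adjusted p = 0.0332) and 1.14 without naïve replicate 5 (adjusted p = 0.571). The differences within the pairs were 0.32, 2.40 and 5.15. Another probe set of Epha7 gave signals that did not overlap, 365, 115 and 89.0 against 661, 944 and 777 (log2 fold change 2.34, standard error 0.72, adjusted p = 0.109), and a further one gave 951, 15.8 and 41.4 against 949, 837 and 914 (adjusted p = 0.207). At the remaining one 5 of the 6 arrays were near background.

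**Figure D2:**
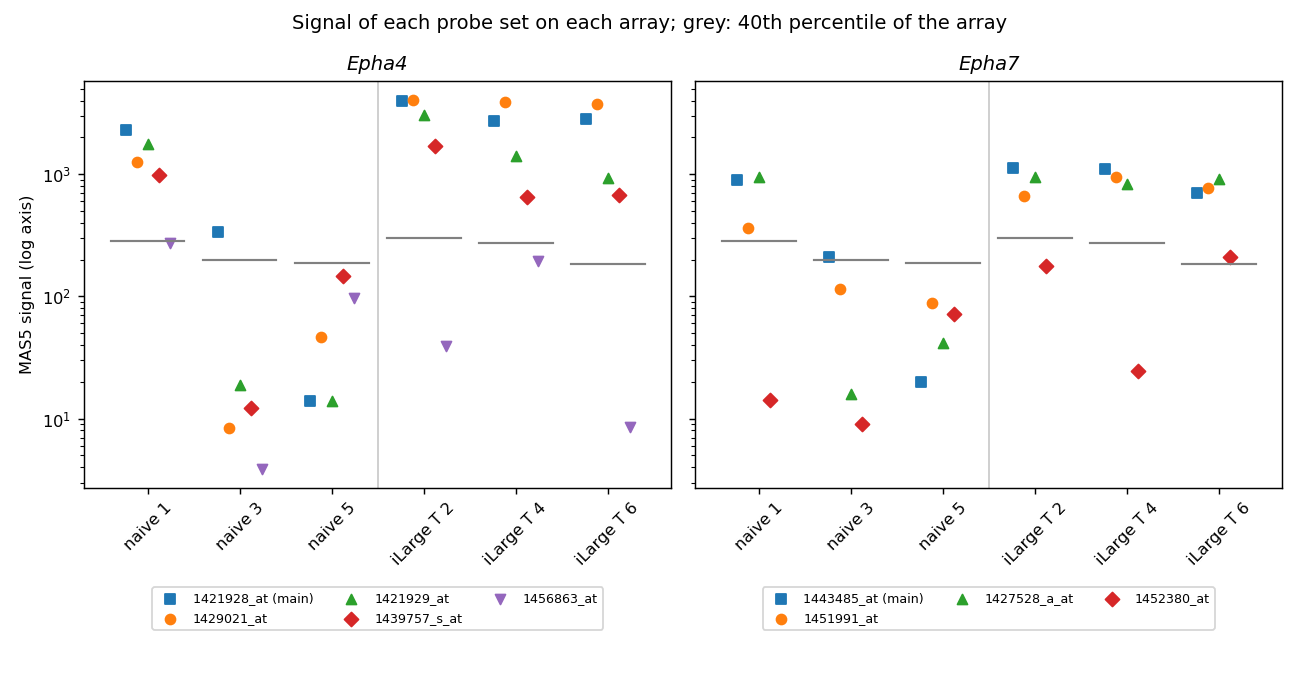
MAS5 signal (log axis) of each probe set of Epha4 (left) and Epha7 (right) on the 3 naïve and 3 iLarge T arrays, with the 40th percentile of each array in grey. At 4 of the 5 probe sets of Epha4 and 3 of the 4 of Epha7 naïve replicate 1 lies above the grey line. Naïve replicates 3 and 5 lie under it there, except naïve replicate 3 at the main probe sets (Epha4 338 and Epha7 209, against a line at 199.6).

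The receptors Epha4 and Epha7 and the ligands Efna1 and Efna2 thus differed from each other in direction on naïve replicate 1. Relative to the mean log2 signal of naïve replicates 3 and 5, replicate 1 was 5.06 higher for Epha4 and 3.80 higher for Epha7 at the main probe sets, and it was lower for Efna1 and Efna2 (differences of -1.94 and -2.11), against a median of 0.07 over all genes. In each case replicate 1 deviated toward the iLarge T arrays. Of the 8 neuron markers the stathmin Stmn2 ran the same way as Epha4, with signals of 7897, 437 and 166 on the naïve and 30251, 25010 and 19934 on the iLarge T arrays, and it makes up most of the summed signal of the list on naïve replicate 1 (12043) and on the iLarge T arrays (26615 to 36539). Stmn2 and the tubulin Tubb3 were called higher (3.54% of all genes were) and 0 of the 8 were called lower (3.26% of all genes were). Naïve replicate 1 was the brightest naïve array for 43.6% of all genes. It was so for Tubb3 too (892, 355 and 90.9, against 4230, 1328 and 5150 on the iLarge T arrays). The same held for Syt1 (326, 181 and 131, against 840, 395 and 393), which was not called and had 1 other probe set called lower. It held too for Nefl, which was near background on all 6 arrays. Rbfox3 (405, 164 and 230) and Map2 (2228, 825 and 968) were also brightest of the naïve arrays on replicate 1. Unlike Stmn2, Map2 had a negative log2 fold change (-1.52, not called), with 206, 1067 and 341 on the iLarge T arrays. Snap25 and Syp were instead lowest of the naïve arrays on replicate 1 (9.23 and 121). Rbfox3, Snap25 and Syp had signals of at most 471, 336 and 248 on any array. The calls of Stmn2 and Tubb3 were made without naïve replicate 1 and lost without any other array (adjusted p of 0.0757 to 0.134 and 0.0641 to 0.189), and the part of these markers in the signals of Epha4 and Epha7 was not tested.

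Epha3 and Epha5 were dim. Epha3, a receptor of mesenchyme and of retinal axons, had signals of 316, 16.7 and 168 on the naïve and 389, 324 and 513 on the iLarge T arrays at its main probe set, and was not called (log2 fold change 2.06, standard error 1.12, 95% interval -0.45 to 4.57, adjusted p = 0.394). The groups did not overlap, but 2 of the naïve arrays were near background. Its other 3 probe sets were near background on all naïve arrays, with log2 fold changes of 3.10, 1.21 and 4.17 that were not called (adjusted p = 0.276, 0.648 and 0.156). Epha5, a receptor of neurons, had signals of 62.5, 273 and 159 against 525, 83.8 and 167, with 4 of the 6 arrays near background (log2 fold change 0.48, 95% interval -1.81 to 2.77). Its other 3 probe sets were near background on all 6 arrays, so no change of Epha5 could be measured.

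**Figure D3:**
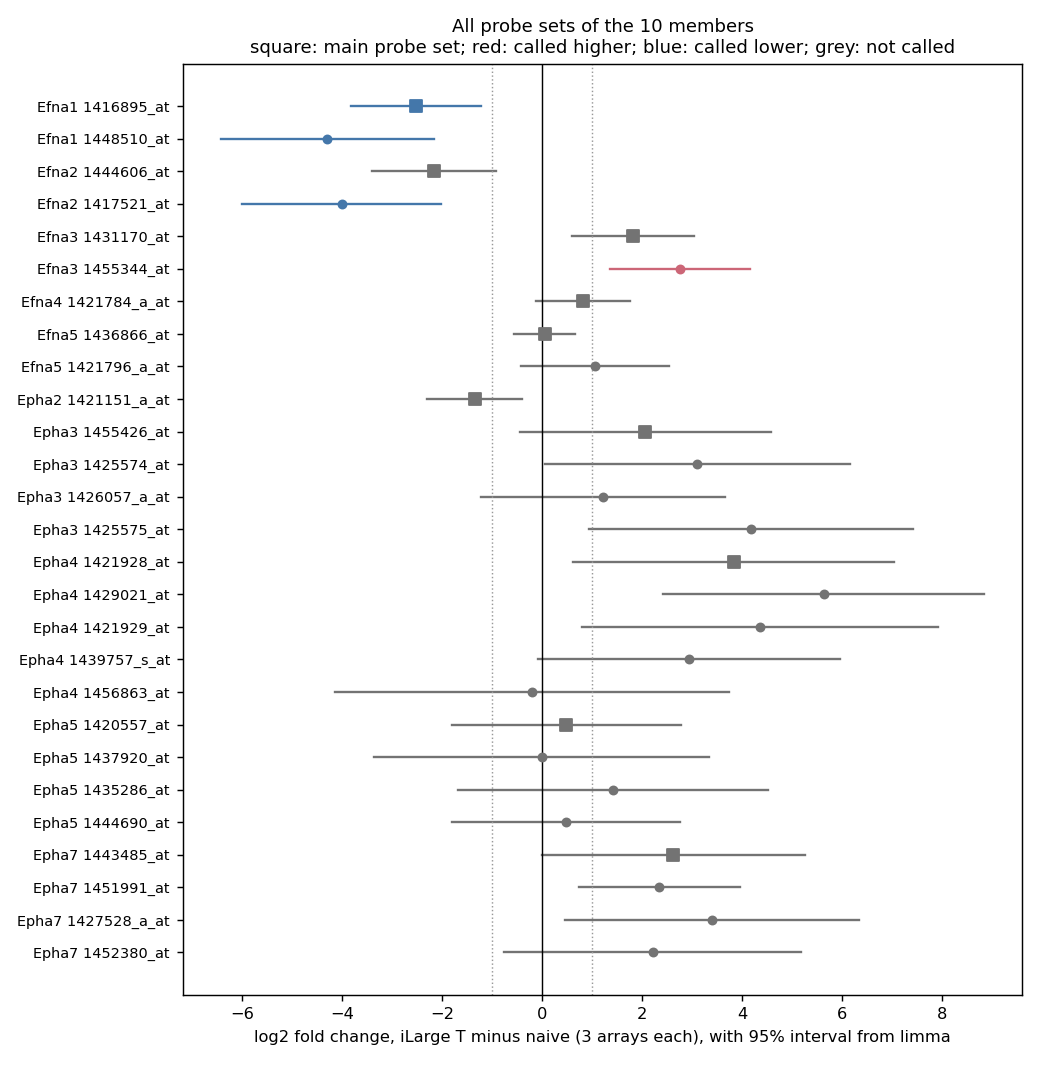
Log2 fold change (iLarge T minus naïve, 3 arrays each) of all 27 probe sets of the 10 members, with the 95% interval from limma. Squares mark main probe sets, dotted lines a 2-fold change, blue the 3 probe sets called lower (both of Efna1, 1 of Efna2) and red the 1 called higher (Efna3). At main probe sets the intervals of Epha3, Epha4, Epha5 and Epha7 are wider than those of the 5 ligands.

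Of the 27 probe sets of the members, 20 had a positive and 7 a negative log2 fold change, and 1 was called higher and 3 lower, where 4.74% of all probe sets were called in either direction. Probe sets of a gene share its transcripts and are not replicates. All of the ligands were at or above the 40th percentile on the 6 arrays at their main probe sets, against 1 of the 5 receptors.

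Of 12 further Eph and ephrin genes, 11 were measured, 1 was called lower (3.26% of all genes), 0 were called higher, and the median log2 fold change was 0.02. Ephb3, a receptor for class B ephrins, was the gene that fell. Its signals were 2461, 4311 and 5126 on the naïve and 1045, 1388 and 576 on the iLarge T arrays, and the groups did not overlap (log2 fold change -2.01, standard error 0.43, adjusted p = 0.0281). Its call was lost on leaving out naïve replicate 3 (0.128), naïve replicate 5 (0.131), iLarge T replicate 2 (0.0782) or iLarge T replicate 6 (0.0879). Of the class B ligands, some of which EphA4 also binds, Efnb1 had a log2 fold change of -0.87 (adjusted p = 0.125), Efnb2 one of -0.82 (adjusted p = 0.344) and the dim Efnb3 one of 0.11 (adjusted p = 0.973).

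Co-receptors that pass an ephrin-A signal into the ligand-bearing cell (the neurotrophin receptors Ngfr and Ntrk2 and the kinase Ret) and the protease Adam10, which sheds ephrins, made a list of 4 genes, of which 0 were called (6.80% of all genes) and 2 had an unadjusted p under 0.05 (22.0% of all genes). Adam10 had signals of 35266, 35195 and 35247 on the naïve and 26975, 22111 and 24442 on the iLarge T arrays, which did not overlap (log2 fold change -0.53, standard error 0.21, adjusted p = 0.230). Ngfr was bright on iLarge T replicate 6 alone, with 632, 332 and 3429 on the iLarge T arrays and 78.8, 225 and 333 on the naïve arrays.

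Values of 3 single genes that act inside the cell under Eph receptors follow, chosen for their values (Chn2 and Rin1 were called). Chn2, which encodes the Rac-inactivating beta-chimaerin, had signals of 2415, 3694 and 4073 on the naïve and 13.9, 14.4 and 164 on the iLarge T arrays. The latter were all near background, which makes Chn2 at least 13.4-fold lower after recovery (limma, adjusted p = 0.00520). Its relative Chn1, the alpha-chimaerin that acts under EphA4 in motor axons, had signals of 616, 8.05 and 219 on the naïve and 4570.3, 2797 and 3083 on the iLarge T arrays. The groups did not overlap, but Chn1 was not called (log2 fold change 5.05, standard error 1.3, 95% interval 2.15 to 7.95, adjusted p = 0.0589). Leaving out naïve replicate 1 (0.00561) or 3 (0.0208) brought a call. Rin1, a Ras effector that takes up EphA4 from the cell surface, had signals of 1909.6, 2773 and 2952 on the naïve and 5537, 8441 and 6456 on the iLarge T arrays. The log2 fold change by which Rin1 rose was 1.42 with a standard error of 0.30 and an adjusted p of 0.0246 from limma. This call was made without naïve replicate 1 (0.0147) and lost without each of the other arrays (0.0511 to 0.129), and like that of Ephb3 it was lost without the intensity trend of limma (0.171 for Rin1, 0.156 for Ephb3). The other probe set of Rin1 was not called.

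Kinases, phosphatases and adaptors of Eph signalling, such as Fyn, Src, Nck1 and Crk, numbered 20 measured, with 0 called and a median log2 fold change of 0.29. Of them 4 had an unadjusted p under 0.05, a share near the 22.0% of all genes. Ephb2, which no probe set names alone, is not analysed here.

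**Figure D4:**
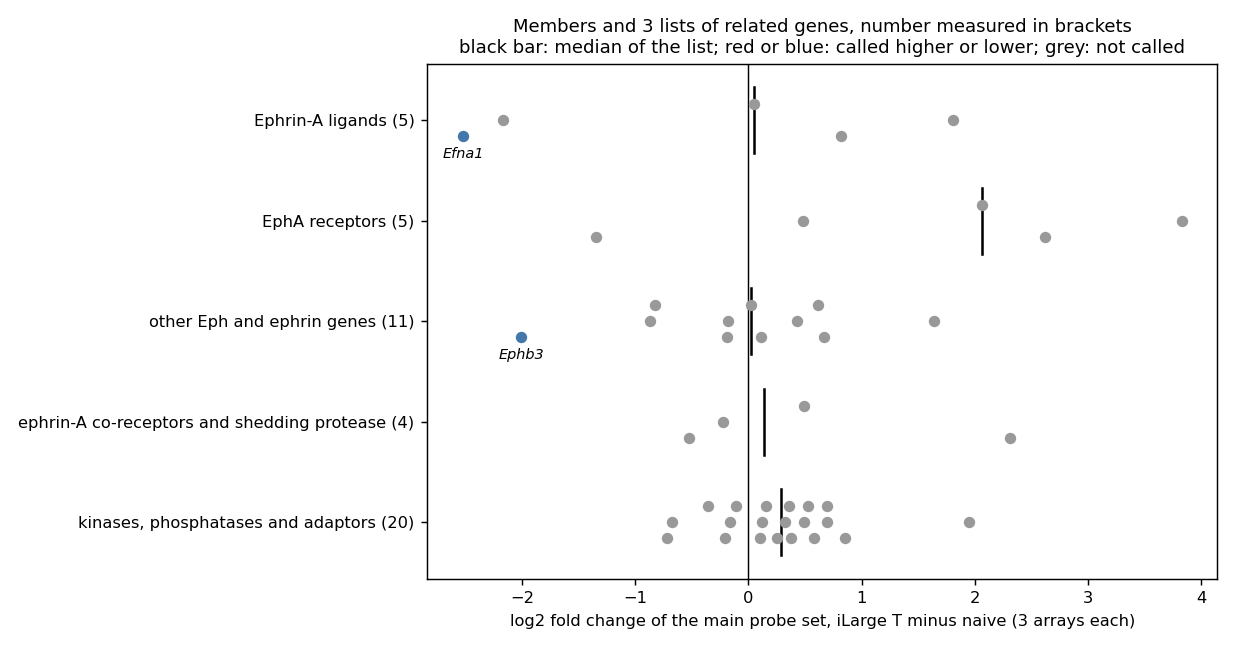
Log2 fold change (iLarge T minus naïve, 3 arrays each) of the main probe set of each measured gene in the member groups and in 3 lists of related genes, with the median of each list as a black bar. Of the genes plotted, Efna1 and Ephb3 were called (blue, lower), and the median of the receptors, 2.06, lies above the medians of the ligands and of the 3 lists. This receptor median is the value of Epha3, which was dim and not called.

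Among 9096 genes at or above the median signal, those whose log2 signals followed Efna1 most closely over the 6 arrays were Ccdc122, H2-K1 and 2810013P06Rik, with Pearson correlations of 0.997, 0.996 and 0.995. H2-K1, a class I histocompatibility gene, had signals of 32789, 108283 and 100207 on the naïve and 7425, 8530.2 and 18788 on the iLarge T arrays. With 6 arrays in 2 groups such correlations hold the difference between groups, and they are given as a description.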

How the data were processed

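RNA of 3 naïve and 3 iLarge T pools was measured on Affymetrix Mouse Genome 430 2.0 arrays. The authors deposited MAS5 signals, an intensity on a linear scale, made per the methods in GeneChip Operating Software 1.2, and each array has a trimmed mean of 2500 (2% cut at each end). Detection calls were not used here, and near background means under the 40th percentile of the array. The depth of an array is not counted in reads, and the number of arrays limits the precision.

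After removal of 64 control probe sets, 45037 were tested, of which 34945 have 1 gene symbol in the platform annotation, 932 have several and 9160 none, and only the first kind names a gene. RefSeq gene identifiers changed 0 symbols.

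Log2 signals were fitted in R 4.3.3 by lmFit and eBayes of limma 3.58.1 with the trend on, and p-values were adjusted by Benjamini-Hochberg over the 45037. Calls required 2-fold besides an adjusted p under 0.05. Intervals are 95% intervals from limma. Where the dimmer group was near background on all 3 arrays, the fold is a lower bound against the 40th percentile (mean of log2 signals). Fits were tested on simulated data. Python 3.11.15 with pandas 2.3.3, numpy 2.4.6 and matplotlib 3.10.9 made the tables and plots.

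The members and lists were chosen with earlier results of these data known, and 2 pathway lists are not reported here. Named were all members, called genes of the pathway and marker lists and the 3 genes most like each called member, while Adam10, Ngfr, Efnb1, Efnb2, Efnb3, Chn1 and the marker genes that were not called were added after their values were seen. Alternatives were limma without the trend, the methods' t-test, quantile normalization, a filter, a floor, a pseudocount of 16, each array left out in turn, other probe sets for a gene and no fold threshold. Hybridization pairs as a block and leaving out the first pair were added after seeing the data.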

Additional observations from a re-analysis of the deposited data

How the results depend on the processing

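Of the 10 members, 0 were called higher and 1 lower, and these counts moved with the setting. Called higher were 2 with signals raised to the 40th percentile (Efna3 and Epha4), 1 on averaging a gene's probe sets or taking the most variable one (Efna3 in both), and 2 without both arrays of the first hybridization pair (Efna3 and Epha4). Called lower were 0 by limma without the trend and by the methods' t-test on log2 or on linear signals, 3 with signals raised and with the pairs as a block (Efna1, Efna2 and Epha2 in both), and 2 on averaging probe sets, taking the most variable one and without the first pair (Efna1 and Efna2 in each). With 1 array left out, the counts ran from 0 to 3 higher and from 0 to 2 lower. The most calls came without naïve replicate 1 (Efna3, Epha4 and Epha7 higher, Efna1 and Efna2 lower), and 0 members were called without any of the other 5 arrays. Of the fits with 1 array left out, the one without naïve replicate 1 also called the most of all genes (1298 higher and 1214 lower). Quantile normalization, the filter on dim probe sets, log2 of the signal plus 16 and no fold threshold left Efna1 as the only call.

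Over all genes, 644 were higher and 593 lower. Limma without the trend gave 85 and 48, and the methods' t-test 7 and 7 on log2 and 17 and 36 on linear signals. Raised signals gave 971 and 850, the pairs as a block 910 and 885, and leaving out the first pair 1272 and 1278. With 1 array left out, 250 to 1298 were higher and 232 to 1214 lower. The cause of these shifts was not tested, except that fewer arrays entered the last 2. The sign of Efna5 turned without naïve replicate 3 (-0.14) or iLarge T replicate 6 (-0.03), within a range of -0.14 to 0.17 with 1 array left out, and that of Epha5 without naïve replicate 1 (-0.10), iLarge T replicate 2 (-0.24), within a range of -0.24 to 1.09, without the first pair (-0.82) or at its most variable probe set (-0.0067), none of them called. Chn2 kept its direction and its call except without the trend (adjusted p = 0.0640) and by the t-test on log2 (0.131) and linear signals (0.119). These settings also lost Ephb3 (0.156, 0.195 and 0.261) and Rin1 (0.171, 0.137 and 0.185), and Rin1 was lost at its most variable probe set (0.258). No paired analysis by label was possible because the groups share no replicate numbers.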
